A study of Homo sapiens with 12 samples.

Results

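The 10 genes described here encode the AP-1 subunits of the FOS family (FOS, FOSB, FOSL1, FOSL2) and the JUN family (JUN, JUNB, JUND), together with the related bZIP proteins ATF3, BATF3 and MAFF. They were chosen by name, and all 10 were found among the 21207 genes of the deposited table by matching Ensembl identifiers to symbols. Their transcripts were read in 12 RNA-seq libraries from the human ovarian cancer line HEYA8, with 3 libraries in each of 4 groups: vehicle, and colforsin daropate for 48 h at 1 µM, 5 µM and 10 µM. The drug is a water-soluble form of forskolin, and like its parent compound it activates adenylyl cyclase and so raises cyclic AMP. The series asks what this drug does to ovarian cancer cells. All groups share the same line and medium, so the results speak for 1 cell line at 1 time point. The 3 libraries of a group are called biological replicates in the design text. Each library also carries a number in its title, 6, 8 or 11, which recurs in every group. The labels do not say what the number marks.

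AP-1 is a dimer of bZIP proteins, which grip DNA with a basic region and pair through a leucine zipper. FOS proteins need a JUN partner to bind, whereas JUN proteins can also pair with each other or with ATF proteins. FOS, FOSB, JUN and JUNB are classical immediate early genes, switched on within minutes by growth factors, stress or cyclic AMP. FOSL1 (FRA-1) and FOSL2 (FRA-2) lack the strong transactivation domain of FOS and last longer, and FOSL1 is known as a read-out of ERK signalling in many carcinomas. Cyclic AMP acts through protein kinase A and the factor CREB, which binds the letters TGACGTCA or their core TGACG, while AP-1 itself prefers TGANTCA.

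Promoters of 8 members were in the RefSeq promoter table (GRCh38.p14), as 10 windows of 250 bases ending just before a transcription start. The core TGACG, searched on both strands, occurred in 7 of the 10 windows, from 7 members, against 21.2% of all 35116 windows. The whole site TGACGTCA, which contains the core on both strands, was in the windows of JUND and MAFF and in 1.65% of all. Its variant TGACATCA was in those of JUN and ATF3, and in 2.38% of all. TGANTCA was in none of the 10 windows and in 6.57% of all, and the CArG box bound by serum response factor was in none of them and in 1.16% of all. These are matches of letters and were not tested for binding. Sites outside the 250 bases, further upstream or past the start, were not searched, so absence here holds for these windows only. The windows of FOSL2 and JUND, which rose with the drug, and of FOS and MAFF, for which no difference passed the test, are shown on the strand of the gene, with TGACG or its reverse complement CGTCA in capitals.
FOSL2, chr2:28392608-28392857, plus strand: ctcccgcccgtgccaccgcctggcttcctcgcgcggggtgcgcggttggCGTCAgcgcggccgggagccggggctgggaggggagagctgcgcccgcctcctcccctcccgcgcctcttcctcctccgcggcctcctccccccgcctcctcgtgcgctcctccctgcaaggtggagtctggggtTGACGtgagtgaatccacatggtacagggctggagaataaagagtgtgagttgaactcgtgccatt
JUND, chr19:18281623-18281872, minus strand: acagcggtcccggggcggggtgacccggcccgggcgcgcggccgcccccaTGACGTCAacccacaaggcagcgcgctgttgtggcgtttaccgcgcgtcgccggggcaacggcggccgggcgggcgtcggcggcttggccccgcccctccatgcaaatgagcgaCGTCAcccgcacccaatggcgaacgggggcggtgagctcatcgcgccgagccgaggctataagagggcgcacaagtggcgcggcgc
FOS, chr14:75278578-75278827, plus strand: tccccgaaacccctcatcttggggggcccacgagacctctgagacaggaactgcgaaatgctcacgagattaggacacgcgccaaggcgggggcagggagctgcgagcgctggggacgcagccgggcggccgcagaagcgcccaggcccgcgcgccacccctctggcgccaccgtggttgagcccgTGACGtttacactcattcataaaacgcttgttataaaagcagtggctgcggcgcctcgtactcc
MAFF, first start, chr22:38201744-38201993, plus strand: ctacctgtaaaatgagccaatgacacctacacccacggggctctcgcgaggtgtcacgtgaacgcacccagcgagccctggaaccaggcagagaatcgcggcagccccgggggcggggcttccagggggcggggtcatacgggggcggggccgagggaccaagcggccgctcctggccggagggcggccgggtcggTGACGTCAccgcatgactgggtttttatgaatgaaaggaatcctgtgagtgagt
In FOS the core lay at -64 to -60 from the start, in FOSL2 at -66 to -62 and at -201 to -197. The whole site lay at -200 to -193 in JUND, which had a further core at -86 to -82, and at -54 to -47 in MAFF.

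The deposited values were variance-stabilised, on a scale that runs as log2 for abundant genes and flattens to a floor of 4.86 where a gene has no reads. The curve could be inverted, so normalised read counts are given beside them. Values of 10 and above carried 1 decimal only, so for abundant members equal values may hide small differences. Reads on genes came to 24.0 to 48.5 megareads a library, the lowest in vehicle number 6. Of 15 markers of ovarian carcinoma, 11 were in the table: PAX8, the Müllerian lineage factor, stood at 12.5 to 13.6 and KRT8 at 13.1 to 14.5, whereas the epithelial markers EPCAM (5.45 to 5.72) and KRT19 (4.86 to 5.94) were at or near the floor. The mesenchymal marker VIM stood at 17 to 18.7. The summed count of the 11 was 178355 to 235783 at 10 µM and 273429 to 497093 in vehicle, and VIM makes up most of it. Its members went both ways: at 10 µM and in vehicle, VIM averaged 17.2 and 18.1, KRT8 13.3 and 14.1, PAX8 13.4 and 12.7, KRT7 13.03 and 11.9, and CDH2 12.5 and 11.2. Of 14 markers of other cell types, 9 were in the table, with CD14 and PTPRC at or near the floor but the endothelial gene CDH5 at 10.8 to 13.1. Their summed count was 4643 to 6127 at 10 µM and 2094 to 8286 in vehicle. The part of these markers in the members' differences was not tested. In bulk RNA, fewer cells of a type and less RNA per cell cannot be told apart.

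Differences were tested with limma over 17767 genes at a Benjamini-Hochberg adjusted p under 0.05, and all 10 members were among them. At 1 µM, 1 member was higher than in vehicle and 0 were lower, where 1.18% and 0.613% of all genes were called in those directions. At an unadjusted p under 0.05, 2 members were higher and 2 lower at that dose. JUN, with the largest p among them (0.0416, limma), ranked 2477 of the 17767 genes by p, so many other genes passed that cut too. At 5 µM, 2 members were higher and 3 lower, against 7.67% and 7.44% of all genes. At 10 µM, 2 were higher and 1 lower, against 11.2% and 11.4%. The median difference of the 10 was 0.02, -0.13 and -0.07 at 1, 5 and 10 µM, beside 0, -0.003 and 0 over all genes, and members were called in both directions. Libraries of the same number deviated together, and with the number as a block in the fit the members called were 2 higher and 1 lower at 1 µM, 3 higher and 4 lower at 5 µM, and 3 higher and 3 lower at 10 µM. The block raised the calls among all genes too, to 6.76% higher and 5.26% lower at 1 µM, 15.3% both ways at 5 µM, and 18.7% and 19.7% at 10 µM.

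**Figure D1:**
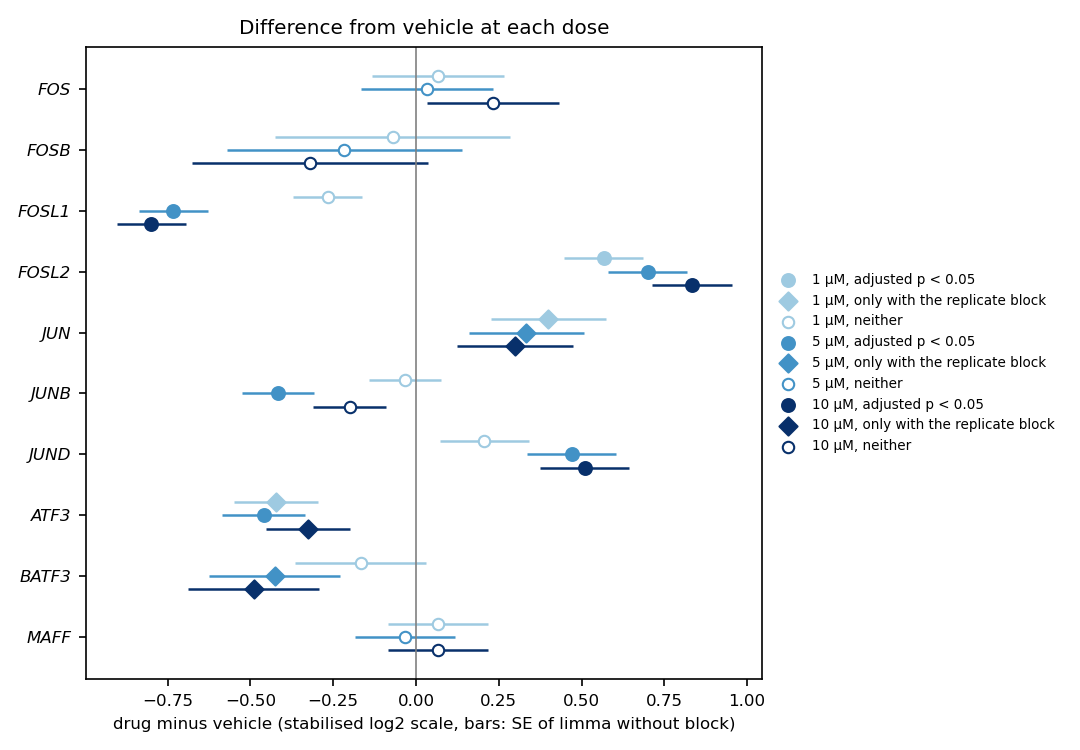
Difference of each of the 10 members from vehicle on the stabilised scale (log2-like) at 1, 5 and 10 µM, with bars of the limma standard error, from 3 libraries a group; filled circles pass at an adjusted p under 0.05, diamonds pass with the block only, and open circles pass neither. FOSL2, JUND, JUN and FOS lie above 0 at all 3 doses, and FOSL1, ATF3, BATF3, FOSB and JUNB below 0. The largest difference is 0.23 for FOS and 0.07 for MAFF.

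In the FOS family, FOSL2 rose and FOSL1 fell. FOSL2, at chr2:28392448-28417312 on the plus strand (GENCODE 29, GRCh38), had stabilised values in libraries 6, 8 and 11 of 12.5, 12 and 12 in vehicle cells, 12.8, 12.7 and 12.7 at 1 µM, 12.8, 12.8 and 13 at 5 µM, and 13 in all 3 at 10 µM. Every treated library was above every vehicle library, and vehicle number 6 was the highest of the vehicle libraries. The normalised count was 8134 at 10 µM, identical in all 3 libraries because of the rounding, and 4603 ± 980 in vehicle (SD, n = 3), or 1.77-fold. The limma difference from vehicle was 0.57 ± 0.12 (SE) at 1 µM, 0.70 ± 0.12 at 5 µM and 0.83 ± 0.12 at 10 µM, with adjusted p of 0.0374, 0.00292 and 0.000635. At 1 µM the call was lost in 12 of 21 alternatives: quantile scaling (adjusted p = 0.0559), no variance trend (0.0508), without number 8 or 11, and without any single library of numbers 8 and 11 except 5 µM number 11, or without 1 µM number 6 (0.0598 to 0.807). At 5 µM it was lost without number 8 (0.135) or 11 (0.149), and at 10 µM without number 8 (0.0639). Few of the 17767 genes kept a call in those fits: without number 8 or 11, 4 and 2 were called higher at 1 µM, and 81 and 112 at 5 µM. Within numbers the difference at 10 µM was 0.5 for number 6 and 1.0 for both 8 and 11.

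FOSL1, at chr11:65892049-65900573 on the minus strand, gave 12, 12.2 and 12.2 in vehicle cells, 11.9, 11.9 and 11.8 at 1 µM, 11.3, 11.3 and 11.6 at 5 µM, and 11.2, 11.3 and 11.5 at 10 µM. All treated libraries lay below all vehicle libraries, and those at 5 and 10 µM also lay below those at 1 µM. Normalised counts averaged 2532 ± 278 at 10 µM and 4444 ± 352 in vehicle (SD, n = 3 each), a ratio of 0.570. The difference of -0.27 ± 0.10 at 1 µM did not pass (adjusted p = 0.237, limma), and those of -0.73 at 5 µM and -0.80 at 10 µM did (adjusted p = 0.00101 and 0.000359). Both calls were lost without number 8 (0.115 at 5 µM and 0.0523 at 10 µM). FOSL1 was the member called between doses: 10 against 1 µM gave -0.53 ± 0.10 (adjusted p = 0.0188), where 2.54% of all genes were called lower. That call was lost without numbers 8 or 11 (adjusted p = 0.430 and 0.132), and without any 1 of 5 single libraries, the 3 at 1 µM and numbers 6 and 8 at 10 µM (0.0517 to 0.0846).

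FOS and FOSB, the family members with the strongest transactivation domain, passed the test at no dose at 48 h. Earlier times were not measured, so a brief earlier rise would not be seen. FOS, at chr14:75278774-75282230 on the plus strand, stood at 10.3, 10.9 and 10.5 in vehicle cells, 10.6, 10.7 and 10.6 at 1 µM, 10.1, 10.9 and 10.8 at 5 µM, and 10.7, 11 and 10.7 at 10 µM. The groups overlapped at every dose, with a difference at 10 µM of 0.23 ± 0.20 (adjusted p = 0.441, limma). FOSB, at chr19:45467995-45475179 on the plus strand, had the widest spread among vehicle libraries: 6.94, 7.72 and 6.90 at 10 µM for numbers 6, 8 and 11, against 6.71, 8.32 and 7.49 in vehicle. Its values were 7.22, 7.61 and 7.48 at 1 µM and 6.95, 7.69 and 7.23 at 5 µM, so all groups overlapped. Its vehicle counts alone spanned 54.5 to 264, wider than any difference between groups. At 10 µM the difference was -0.32 (adjusted p = 0.566), positive for number 6 (0.23) and negative for 8 and 11 (-0.60 and -0.59).

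**Figure D2:**
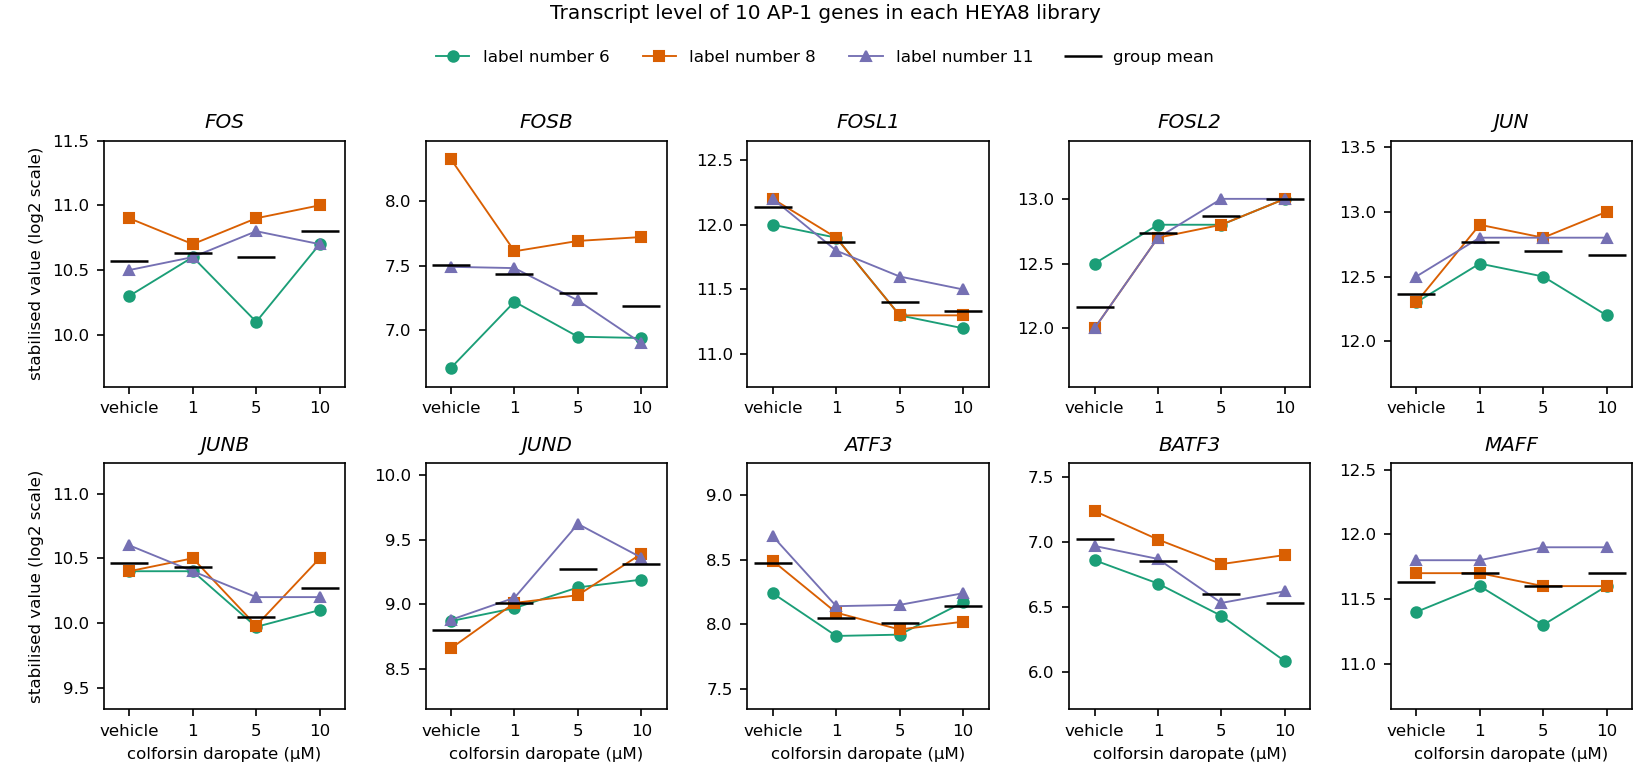
Stabilised value of each of the 10 members in the 12 libraries, by group from vehicle to 10 µM, with points marked and joined by label number and bars at the group means. FOSL1 falls and FOSL2 rises over the doses, the vehicle libraries of FOSB spread from 6.71 to 8.32, and 10 µM number 6 is the lowest JUN value at 12.2.

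Per kilobase of exon, the make-up of the FOS family shifted between its FRA members. In the order vehicle, 1, 5 and 10 µM, FOSL1 gave 67.6%, 57.5%, 47.9% and 44.2% of the family's summed count, the mean of 3 libraries each. FOSL2 gave 18.6%, 27.9%, 35.4% and 37.6%. FOS gave 13.1%, 14%, 16.0% and 17.7%, and FOSB under 1% on average in every group. The ratio of FOSL2 to FOSL1 in numbers 6, 8 and 11 was 0.374, 0.229 and 0.229 in vehicle cells, 0.496, 0.462 and 0.496 at 1 µM, 0.757, 0.757 and 0.704 at 5 µM, and 0.935, 0.871 and 0.756 at 10 µM. All treated libraries lay above all vehicle libraries, both higher doses lay above 1 µM, and the 5 and 10 µM libraries overlapped. These shares describe the same levels on another scale and were not tested. They use the union of annotated exons as length, which overstates the length of shorter transcripts.

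**Figure D3:**
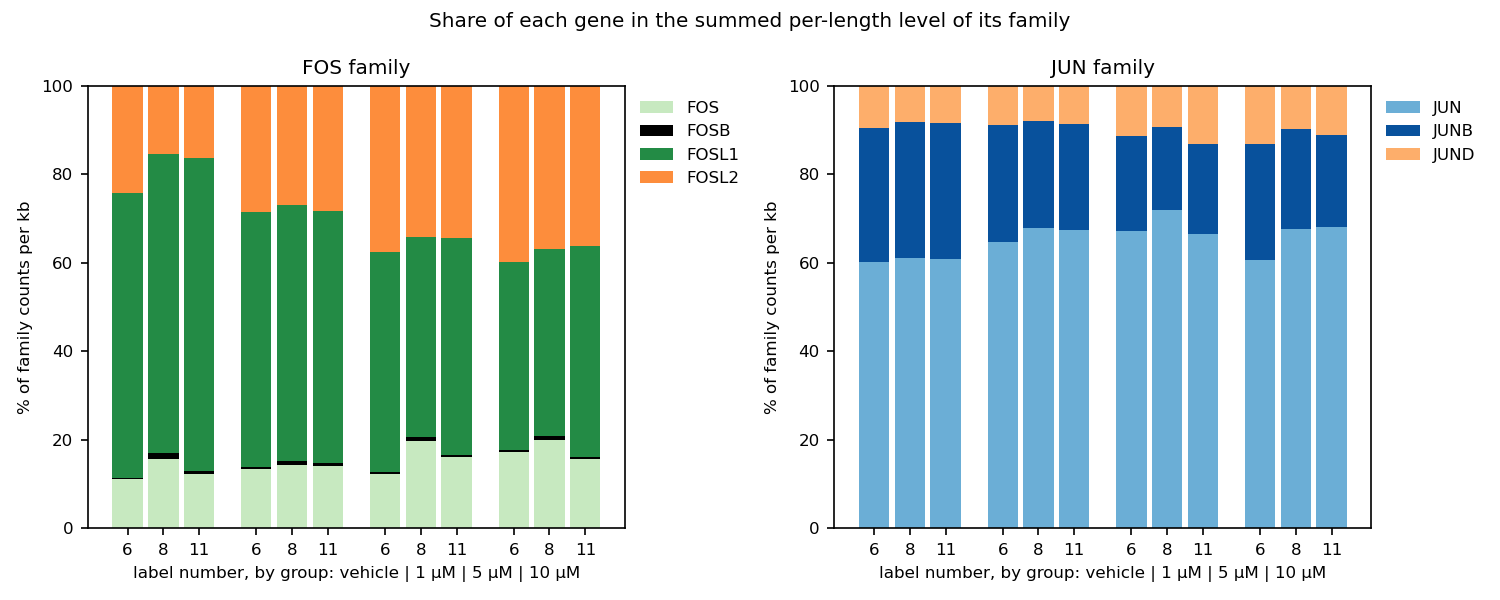
Share of the summed count per kilobase held by each member of the FOS family and of the JUN family in each library, grouped by dose. FOSL1 has a mean share of 44.2% at 10 µM and 67.6% in vehicle, FOSL2 one of 37.6% and 18.6%, and JUN holds the largest share of its family in all groups.

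The JUN family supplies the obligate partners. JUND, at chr19:18279760-18281622 on the minus strand, is the JUN gene least responsive to growth signals and is held at a steady level in many cells. It had values of 8.87, 8.66 and 8.88 in vehicle cells, 8.97, 9.01 and 9.05 at 1 µM, 9.13, 9.07 and 9.62 at 5 µM, and 9.19, 9.39 and 9.36 at 10 µM. Every treated library lay above every vehicle library at all 3 doses. JUND rose by 0.47 ± 0.13 at 5 µM (adjusted p = 0.0363, limma) and by 0.51 ± 0.13 at 10 µM (0.0184), with counts of 580 ± 46.6 at 10 µM and 391 ± 37.4 in vehicle (SD, n = 3 each). The call at 10 µM was lost without numbers 8 or 11 (adjusted p = 0.258 and 0.067) or without vehicle 8, 10 µM 8 or 10 µM 11 alone (0.0563 to 0.076). At 5 µM it was lost in 8 of 21 alternatives: without numbers 8 or 11, or without 1 library among vehicle 8 and 11, 1 µM 8 and 11, 5 µM 11 and 10 µM 11 (0.0516 to 0.263). Without 5 µM number 11, the highest library at 9.62, the difference at 5 µM was 0.297.

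JUNB, at chr19:12791496-12793315 on the plus strand, can hold JUN in check in some settings. Its values were 10.4, 10.4 and 10.6 in vehicle cells, 10.4, 10.5 and 10.4 at 1 µM, 9.97, 9.98 and 10.2 at 5 µM, and 10.1, 10.5 and 10.2 at 10 µM. It fell at 5 µM by 0.42 ± 0.11 (adjusted p = 0.0256, limma), where the groups did not overlap, and the difference at 10 µM was -0.20 (0.22), with 10 µM number 8 at the vehicle level. The call at 5 µM was lost in 6 of 21 alternatives, without number 8 or 11, vehicle 8 or 11, or 5 µM 6 or 8 (adjusted p = 0.0526 to 0.195). JUNB exons overlap HOOK2 on the other strand, and the strand setting of the counting is not given in the sources used here. Whether reads in the overlap were counted for a gene or set aside as ambiguous is therefore not known. HOOK2 differed from vehicle by -0.12 at 5 µM (adjusted p = 0.496).

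JUN, at chr1:58780788-58784327 on the minus strand and the strongest activator of its family, gave 12.3, 12.3 and 12.5 in vehicle cells, 12.6, 12.9 and 12.8 at 1 µM, 12.5, 12.8 and 12.8 at 5 µM, and 12.2, 13 and 12.8 at 10 µM. The 1 µM libraries were all above vehicle, but at 10 µM number 6 was below all vehicle libraries. The differences of 0.40 ± 0.17, 0.33 ± 0.17 and 0.30 ± 0.17 did not pass (adjusted p = 0.298, 0.237 and 0.247, limma). With the number as a block they did (0.0342, 0.0369 and 0.0475), and also without number 6 (0.0251, 0.0167 and 0.00588) and, at 10 µM, without 10 µM number 6 alone (0.0161). Within numbers at 10 µM, JUN differed by -0.1 for 6, 0.7 for 8 and 0.3 for 11. A test of the slope over dose in number 6 against 8 and 11 called none of the 10 members by limma, where 2.23% of all genes were called, and gave JUN alone an unadjusted p under 0.05 (-0.19 ± 0.08 per dose step, limma adjusted p = 0.282).

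As shares of the JUN family per kilobase, JUN gave 60.7%, 66.7%, 68.5% and 65.5% in vehicle, 1, 5 and 10 µM, JUNB 30.7%, 24.9%, 20.3% and 23.3%, and JUND 8.64%, 8.43%, 11.2% and 11.3%. The ratio of JUN to JUNB was 1.97 to 1.98 in the 3 vehicle libraries and 2.30 to 3.82 in the 9 treated ones, so all treated libraries lay above vehicle. JUN and JUNB carried 1 decimal only in the vehicle libraries, so the narrow range of 1.97 to 1.98 may hide small differences. For JUND to JUNB the ratio was 0.263 to 0.311 in vehicle and 0.322 to 0.637 in treated libraries. The nearest values, 0.311 in vehicle number 6 and 0.322 in 1 µM number 8, were not resolved, because JUNB carried 1 decimal only in both. These ratios are descriptions without a test, and their JUNB part carries the overlap with HOOK2.

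ATF3, a stress-induced factor that often represses as a homodimer, lies at chr1:212565334-212620777 on the plus strand. It had 8.24, 8.49 and 8.68 in vehicle cells, 7.91, 8.09 and 8.14 at 1 µM, 7.92, 7.96 and 8.15 at 5 µM, and 8.17, 8.02 and 8.24 at 10 µM. All libraries at 1 and 5 µM were below vehicle, and at 10 µM number 11 equalled vehicle number 6. ATF3 fell at 5 µM by 0.46 ± 0.13 (adjusted p = 0.0304, limma), with counts of 203 ± 22.2 at 5 µM and 301 ± 53.6 in vehicle. The differences of -0.42 at 1 µM and -0.33 at 10 µM passed only with the block (adjusted p = 0.120 and 0.0137 at 1 µM, 0.0874 and 0.0167 at 10 µM, without and with it) or without number 6 or vehicle 6. The 5 µM call was lost in 6 of 21 alternatives, without numbers 8 or 11 (0.339 and 0.216) or 1 of 4 libraries (vehicle 8, vehicle 11, 5 µM 6 and 5 µM 8).

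BATF3, known for its part in dendritic cell development, lies at chr1:212686418-212699985 on the minus strand. It was low, at 6.86, 7.24 and 6.97 in vehicle cells, 6.68, 7.02 and 6.87 at 1 µM, 6.43, 6.83 and 6.53 at 5 µM, and 6.08, 6.90 and 6.62 at 10 µM. All 5 µM libraries were below all vehicle libraries, and at 10 µM number 8 overlapped vehicle. Counts averaged 46.3 ± 23.3 at 10 µM and 79.2 ± 17.3 in vehicle (SD, n = 3 each), and the differences of -0.43 and -0.49 at 5 and 10 µM did not pass (adjusted p = 0.181 and 0.101, limma). The block gave 0.0140 and 0.00492, and leaving out 10 µM number 8 gave 0.0384 at 10 µM. Without 10 µM number 6 the difference at 10 µM was -0.263, and on log2 recovered counts the differences were -0.72 at 5 µM and -0.88 at 10 µM, a wider scale for low genes. MAFF, a small MAF protein without a transactivation domain, lies at chr22:38200767-38216511 on the plus strand. It stood at 11.3 to 11.9 in all libraries, with differences of 0.07, -0.03 and 0.07 (adjusted p = 0.889, 0.916 and 0.797).

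No overlap with the vehicle libraries was seen for 5 members at 1 µM, 6 at 5 µM and 3 at 10 µM, where 18.3%, 29.2% and 33.8% of all genes did the same. A slope over the 4 ordered groups was called for 4 members, where 26.5% of all genes were called. It was 0.26 per dose step for FOSL2 (adjusted p = 0.000868), 0.18 for JUND (0.00572), -0.29 for FOSL1 (0.000117) and -0.17 for BATF3 (0.0426). The BATF3 call was lost with quantile scaling (0.0523), without any 1 number, and without 1 library among vehicle 8 and 11, 1 µM 8 and 11, 5 µM 6 and 11, and 10 µM 6 and 11 (0.0525 to 0.161). The JUND call was lost without number 8 (0.105). A slope was called for JUN without number 6 (0.0165) or 10 µM number 6 (0.0238), and for JUNB without 10 µM number 8 (0.0182). Between 5 and 1 µM, 0 members were called (0.310% of all genes were), 2 were lower at an unadjusted p under 0.05, and the block called FOSL1 (adjusted p = 0.00738) and JUNB (0.0393), both lower, with 2.68% of all genes. By unadjusted p without the block, FOSL1 and JUNB ranked 129 and 366 of the 17767 genes. Between 10 and 5 µM limma called 0 of the 17767 genes, and 0 members had an unadjusted p under 0.05. Between 10 and 1 µM, FOSL1 was lower, 0 members were higher where 2.17% of all genes were, and 2 were higher at an unadjusted p under 0.05. These were JUND and FOSL2, which ranked 3549 and 3650 of the 17767 genes by p in that comparison. FOSL2 was called higher there without number 6 or vehicle 6 (adjusted p = 0.0327 and 0.0404).

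In level per kilobase of exon, FOSL1 came first in vehicle at 2355 ± 186, then JUN at 1479 ± 122, neither overlapping its neighbour. JUNB, FOSL2, MAFF and FOS followed at 748, 643, 559 and 458, each overlapping the next, then JUND at 210, ATF3 at 74.6, and BATF3 and FOSB at 29.2 and 26.7, which overlapped. At 10 µM JUN (1870 ± 505) and FOSL1 (1342 ± 147) overlapped, and FOSL2 at 1136 came next, above JUNB at 650. MAFF, FOS, JUND and ATF3 followed at 585, 535, 312 and 56.4, with FOSB and BATF3 last at 17.8 and 17.1.

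For each member called at some dose, the genes nearest to it over the 12 libraries were named by the root-mean-square gap between values centred on each gene's own mean. FOSL2 lay nearest to SRC (0.0722), ABL1 (0.0829) and LHFPL2 (0.0862), against a median gap of 0.385 over all genes tested. FOSL1 lay nearest to the ribosomal protein genes RPL10, RPL14 and RPS7 (0.0640, 0.0640 and 0.0759). JUNB was nearest to GGA3, JUND to ENSG00000272173 and ATF3 to ELL2 (0.0953, 0.102 and 0.0732). The genes were picked for their small gaps, so they lie below the median by that choice. These are gaps of level patterns, and abundant genes carry the rounding to 0.1.

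The other genes of the network were counted in 6 lists, at 10 µM against vehicle, where 11.2% of all genes were called higher and 11.4% lower; no list's share was tested against these. Of 37 further bZIP factors 31 were tested, with 5 higher, 2 lower and a median difference of 0.20, beside 0 over all genes. MAFK, a small MAF like MAFF, had a count of 1674 ± 404 at 10 µM and 799 ± 65.3 in vehicle (2.09-fold, adjusted p = 0.000536, limma), and CREB3 and CREB5 were 1.5-fold and 1.68-fold higher. Immediate early genes numbered 31 tested of 34, with 5 higher and 8 lower and a median of -0.20. DUSP1, a phosphatase of MAP kinases and known CREB target, was 3.50-fold higher (difference 1.8 ± 0.10, adjusted p = 1.045e-06). IER3 was 1.88-fold higher and SGK1 was lower, at a ratio of 0.479.

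Of the 33 kinases and transcription factors listed as upstream of AP-1, 3 were higher and 8 lower, with a median of -0.07. MAP3K5 and MAPK3 (ERK1) were lower at ratios of 0.634 and 0.778, and MEF2D was 1.36-fold higher. Of 15 genes listed under inhibition and turnover of AP-1, 2 were higher and 1 lower, with a median of 0.03. Whether each of them acts on FOS or JUN proteins was not tested. TRIB2 was 3.87-fold higher, and among its vehicle libraries the count varied widely (848 ± 386). FBXW7, a ubiquitin ligase subunit that targets JUN, was lower at a ratio of 0.734.

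Textbook AP-1 target genes were 35 tested of 41, and 14 were higher and 6 lower, with a median of 0.33. IL6, a cytokine, was 5.87-fold higher, with 3183 ± 796 counts at 10 µM and 542 ± 142 in vehicle (adjusted p = 1.41e-05, limma). VEGFA was 3.69-fold higher. Among 16 genes whose level follows ERK activity, 4 were higher and 2 lower, with a median of 0.03: SPRY4 and EGR1 were lower at ratios of 0.497 and 0.387, and DUSP4 was 2.60-fold higher. EGR1 is in both the immediate early and ERK lists, and CCND1 and PHLDA1 are in both the target and ERK lists. TRIB1 is in both the immediate early and inhibitor lists. With the block the counts higher and lower were 14 and 3 for the bZIP factors, 7 and 13 for immediate early genes, 6 and 10 for kinases, 3 and 2 for inhibitors, 19 and 12 for targets, and 8 and 7 for ERK output, where the block called 18.7% of all genes higher and 19.7% lower.

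**Figure D4:**
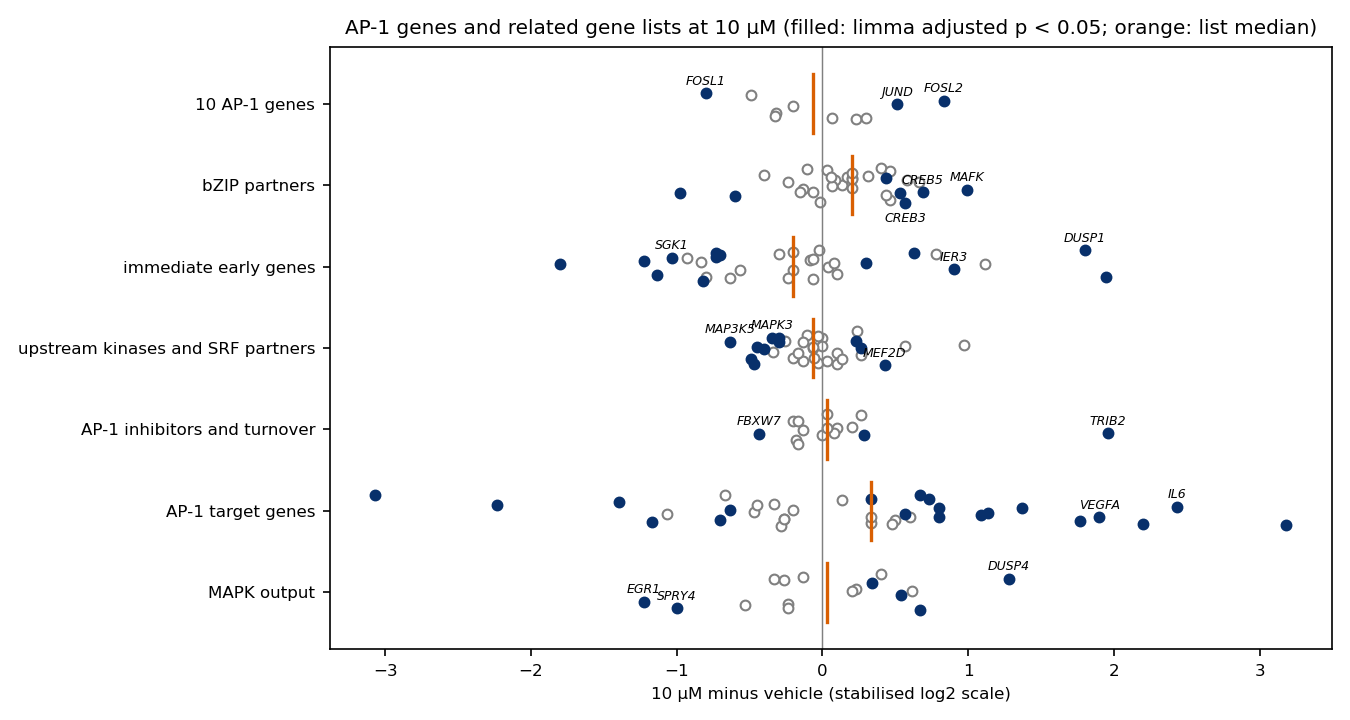
Limma difference at 10 µM against vehicle, on the stabilised scale, of every tested gene of the 6 lists, below the 10 members, with called genes filled, the median in orange, and the called members and up to 3 genes of lowest p in each list named. Genes of each list lie on both sides of 0, and among the named AP-1 targets VEGFA is at 1.90 and IL6 at 2.43.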

How the data were processed

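Total RNA without ribosomal RNA was sequenced in 12 TruSeq libraries of HEYA8, as the labels' protocols state. The deposited values are on a log2 scale, variance-stabilised by the authors. Per the submitters' processing notes, DESeq2 was used and the build was GRCh38 (hg38). No aligner, counter, strand setting or annotation is given in the sources used here. Of 21211 entries in the table, 4 named no gene and stayed out of every test. Reads on genes were 33.9 to 36.7% of each library, those with no feature 36.2 to 41.4%, ambiguous 2.40 to 2.94%, not aligned 0.793 to 1.82% and not uniquely aligned 19.3 to 25.6%. A symbol was found for 21166 genes (99.8%). Positions and exon lengths came from GENCODE 29.

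The stabilising curve was inverted from its floor of 4.86 to give normalised counts, and size factors were taken from the steps that single reads make in low values. Of 67401 values under 6.2, 95.0% lay on the steps of their own library within 0.0055, against 27.4% on those of another library. Values were rounded to 0.01 below 10 and to 0.1 from 10 up, which limits precision for abundant genes. No 2 libraries were duplicates: those most alike differed in 84.2% of values.

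Genes entered a test if over 1 above the floor in at least 3 libraries (17767 genes). limma 3.58.1 in R 4.3.3, with a mean-variance trend, compared the 4 groups in 1 fit over 12 libraries, with two-sided p-values adjusted by Benjamini-Hochberg. Standard errors are those of the fit. The fit was tested on simulated data. The numbers 6, 8 and 11 recur in the titles of all groups, and 18 correlations of deviations between libraries of the same number were 0.316 to 0.777, all above 0.1, so the numbers were taken to pair the libraries and a fit with the number as a block is given where it changes a call.

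The members and lists were chosen with earlier results of these data known. The genes named are all members, the 3 of lowest p at 10 µM in each list, and the 3 nearest to each called member, of which one is printed for JUNB, JUND and ATF3. Some genes that this rule names are not reported here. Alternatives were the block, the filter, quantile scaling, recovered counts on a log2 scale with a pseudocount of 1, no variance trend, and leaving out each number or library. Promoter sequences are RefSeq's.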

Additional observations from a re-analysis of the deposited data

How the results depend on the processing

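With the replicate block, the members called at 1 µM were 2 higher and 1 lower, at 10 µM 3 lower, and at 5 against 1 µM 2 lower. With the block on numbers 8 and 11 alone, an alternative chosen after seeing the data, the counts were 2 higher and 1 lower at 1 µM, 3 lower at 10 µM, 1 higher for 10 against 1 µM and 4 lower for the slope. Of all 17767 genes, that setting called 1419 higher and 1155 lower at 1 µM, and 3236 lower at 10 µM. It called 1107 higher for 10 against 1 µM and 3059 lower for the slope. Quantile scaling gave 0 members higher at 1 µM and 1 lower for the slope. Fitting without a variance trend gave 0 higher at 1 µM. The stricter filter gave 1 lower for the slope because BATF3 did not enter. No filter and log2 recovered counts changed no member count by over 1.5 times. The causes were not tested, apart from that of the filter.

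Leaving out a number or a library gave 0 to 2 higher and 0 to 1 lower at 1 µM, 0 to 3 higher and 0 to 3 lower at 5 µM, 0 to 3 higher and 0 to 2 lower at 10 µM, 0 to 1 higher and 0 to 1 lower for 10 against 1 µM, and 1 to 3 each way for the slope. Calls among all genes at 10 µM were 1982 higher and 2033 lower. They dropped to 347 and 252 when number 8 was left out and to 468 and 494 when 11 was, but leaving out 6 gave more, 2885 and 3050. At 1 µM they were 210 and 109, and leaving out 8, 11 or 6 gave 4 and 0, 2 and 0, or 1200 and 973. At 5 µM they were 1362 and 1322, then 81 and 56, 112 and 93, or 2485 and 2454. For 10 against 1 µM they were 386 and 451, then 0 and 0 without 8 or 11, and 934 and 1189 without 6. For the slope they were 2309 and 2393, then 1051 and 1021, 1105 and 1307, or 2818 and 3033.

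Directions reversed only for members that passed no test at that dose. FOS turned to -0.05 (without number 6) and -0.067 (vehicle 6) at 1 µM, and at 5 µM to -0.10 (number 11 or vehicle 6), -0.12 (5 µM 8) and -0.07 (5 µM 11). FOSB turned to 0.25 (number 8), 0.34 (vehicle 8) and 0.04 (1 µM 6) at 1 µM, and without vehicle 8 to 0.19 at 5 µM and 0.0867 at 10 µM. JUNB at 1 µM turned to 0.05 (number 11) and 0.03 (vehicle 11). MAFF turned to -0.05 at 1 µM (vehicle 6), to 0.05 (vehicle 11) and 0.12 (5 µM 6) at 5 µM, and to -0.05 (vehicle 6) and -0.03 (10 µM 11) at 10 µM.

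FOSB and BATF3 rest on low counts, and the rounding to 0.1 limits the other members from 10 up. The design has 3 libraries a group and 1 line.

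Across all leave-outs, FOS ranged over -0.067 to 0.233 at 1 µM and -0.12 to 0.283 at 5 µM, FOSB over -0.468 to 0.337, -0.615 to 0.19 and -0.718 to 0.0867 at 1, 5 and 10 µM, and MAFF over -0.05 to 0.15 at 1 µM, -0.183 to 0.117 at 5 µM and -0.05 to 0.15 at 10 µM. JUNB at 1 µM ranged over -0.1 to 0.05.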

Other observations

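Of the markers of other cell types, 6 passed the filter and were tested by limma at 10 µM against vehicle. COL1A1, a fibroblast collagen gene, averaged 9.06 at 10 µM and 6.46 in vehicle (difference 2.60, adjusted p = 0.0218). GFAP, a glial filament gene, averaged 9.14 and 7.95 (1.19, adjusted p = 9.38e-05). VWF, an endothelial gene, was lower, at 6.91 and 7.75 (-0.84, adjusted p = 0.00558). The differences of CDH5 (0.47), PECAM1 (0.22) and PDGFRB (-0.33) did not pass (adjusted p = 0.526, 0.784 and 0.442).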
